A study of Mus musculus with 2 samples.

Results

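The genes described here are 4 corneal crystallins, Aldh3a1, Aldh1a1, Tkt and Cryab, out of 20198 genes counted in single cells of the mouse cornea. They were taken by name from the count table and read in every deposited cluster of cells and in both libraries. Their proteins are known as crystallins of the cornea or the lens, and the genes were chosen with earlier results of these data known.

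Crystallins are proteins that a transparent tissue holds in very large amounts, and the cornea uses enzymes for this role that other tissues keep at low levels. Aldh3a1 and Aldh1a1 are aldehyde dehydrogenases that clear the toxic aldehydes formed under ultraviolet light, and Aldh1a1 also oxidises retinaldehyde to retinoic acid. Tkt is transketolase, the enzyme that links the pentose phosphate pathway to glycolysis, and Cryab is alpha-B crystallin, a small heat shock protein first known from the lens.

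The study profiled corneas of male mice aged 6 to 8 weeks, whose strain is not given in the sources used here. One library came from unwounded corneas (UW) and 1 from corneas taken 24 h after wounding (W). In the W mice a 2.5 mm area of central epithelium had been marked with a trephine and removed with an Algerbrush, a rotating burr. Each library pooled 4 mice, or 8 corneas, so there was 1 sample per condition. The study assigned cells to mice by genotype, an assignment not used here, so with 1 library each no difference between UW and W was tested.

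The UW library held 16450 cells with a median of 22014 unique molecular identifiers (UMIs, each standing for 1 captured transcript), and the W library held 12417 cells with a median of 20290. Barcodes shared by both libraries numbered 52. Levels are given as counts per 1000000 UMIs (CPM) after summing the cells of a cluster. Intervals in brackets are exact 95% Poisson or Clopper-Pearson intervals and cover counting error only, not the spread between mice. Counts come from transcript 3′ ends with no account of transcript length, so levels are compared between cells and libraries and not between genes. The epithelial sum took 10 clusters: basal-like cluster 3, S phase-like cluster 11, mitotic-like cluster 8, suprabasal-like clusters 1 and 4, superficial-like cluster 6, terminal superficial-like cluster 7, limbal-like cluster 9, conjunctival-like cluster 5, and cluster 2, which was led by Ly6g6c and Spink5 and stayed unnamed. Keratocyte-like cluster 0 and cluster 10, led by Penk and Myoc, were stromal. Krt12, the keratin of the corneal epithelium, stood at 26753 CPM in the UW epithelial sum against 1554 CPM in UW cluster 0, and Kera, a proteoglycan of keratocytes, at 22.1 against 7482 CPM.

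All 4 genes lie in GRCm38 on the forward strand in the GENCODE M21 annotation. Aldh3a1 (ENSMUSG00000019102.10) spans chr11:61207537-61218421 and Aldh1a1 (ENSMUSG00000053279.8) spans chr19:20492715-20643465. Tkt (ENSMUSG00000021957.7) spans chr14:30548359-30574720 and Cryab (ENSMUSG00000032060.10) spans chr9:50751325-50756636. The start of Cryab overlaps its head-to-head neighbour Hspb2, which is read from the other strand. None of the 441 windows of 60 bases in the last 500 bases of each gene's longest coding transcript occurred in a transcript of any other gene, Aldh1a7 included.

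Promoters of Tkt and Aldh1a1, 2 of the 4 genes, were matched in the table used here, with 1 start for Tkt and both annotated starts for Aldh1a1. They are shown for the base composition and motifs of the starts of these genes. Each run is the 250 bases before the start in RefSeq, build GRCm38.p6, forward strand, with capitals marking matches, on either strand, to the TATA box (TATAAA), the CCAAT box (its own letters) and the GC box (GGGCGG).
Tkt, chr14:30548881-30549130: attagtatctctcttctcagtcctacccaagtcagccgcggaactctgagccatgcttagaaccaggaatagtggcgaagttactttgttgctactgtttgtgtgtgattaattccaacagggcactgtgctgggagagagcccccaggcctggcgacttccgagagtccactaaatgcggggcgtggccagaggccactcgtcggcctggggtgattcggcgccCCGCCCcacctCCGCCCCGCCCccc
Aldh1a1 first start, chr19:20492333-20492582: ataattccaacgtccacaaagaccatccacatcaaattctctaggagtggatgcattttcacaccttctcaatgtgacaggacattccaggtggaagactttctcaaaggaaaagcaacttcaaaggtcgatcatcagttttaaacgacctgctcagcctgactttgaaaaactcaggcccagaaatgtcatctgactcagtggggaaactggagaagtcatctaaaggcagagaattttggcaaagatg
Aldh1a1 second start, chr19:20601718-20601967: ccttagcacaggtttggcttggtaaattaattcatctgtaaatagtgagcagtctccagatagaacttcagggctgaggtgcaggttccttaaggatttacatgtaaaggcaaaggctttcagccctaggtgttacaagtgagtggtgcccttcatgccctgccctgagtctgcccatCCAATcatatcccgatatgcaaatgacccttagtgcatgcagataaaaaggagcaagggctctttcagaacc
The Tkt promoter held 3 GC boxes (GGGCGG, all read from the reverse strand, the last pair sharing 1 base), 14 CpG pairs and 59.6% G and C. The Aldh1a1 promoters held 3 and 1 CpG pairs, 42.8% and 46.4% G and C, and a CCAAT box at the second start only. Over 32536 promoters of the same length, 33.0% held a GC box, 33.8% a CCAAT box and 12.3% a TATA box, and the median was 6 CpG pairs. The deposited counts do not tell which Aldh1a1 start was used.

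Free RNA released from broken cells gives UMIs in cells that do not make a gene. Immune cells should lack Aldh3a1, Aldh1a1 and Cryab, and the 4 immune clusters of W gave a background in CPM: 477 to 1391 CPM for Aldh3a1, 7.38 to 18.0 CPM for Aldh1a1 and 26.2 to 74.6 CPM for Cryab. Tkt stood at 401 to 828 CPM there, but every cell can use transketolase, so immune cells are no blank for it. Immune cells were shallower, with median depths of 2510 to 10144 UMIs, so the same background was also read in UMIs per cell: 3.56 to 14.2 for Aldh3a1, 0.046 to 0.136 for Aldh1a1 and 0.193 to 0.441 for Cryab. Both readings are given, since they place several clusters differently. The UW library held only 15 immune cells, too few for a background of its own.

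**Figure D1:**
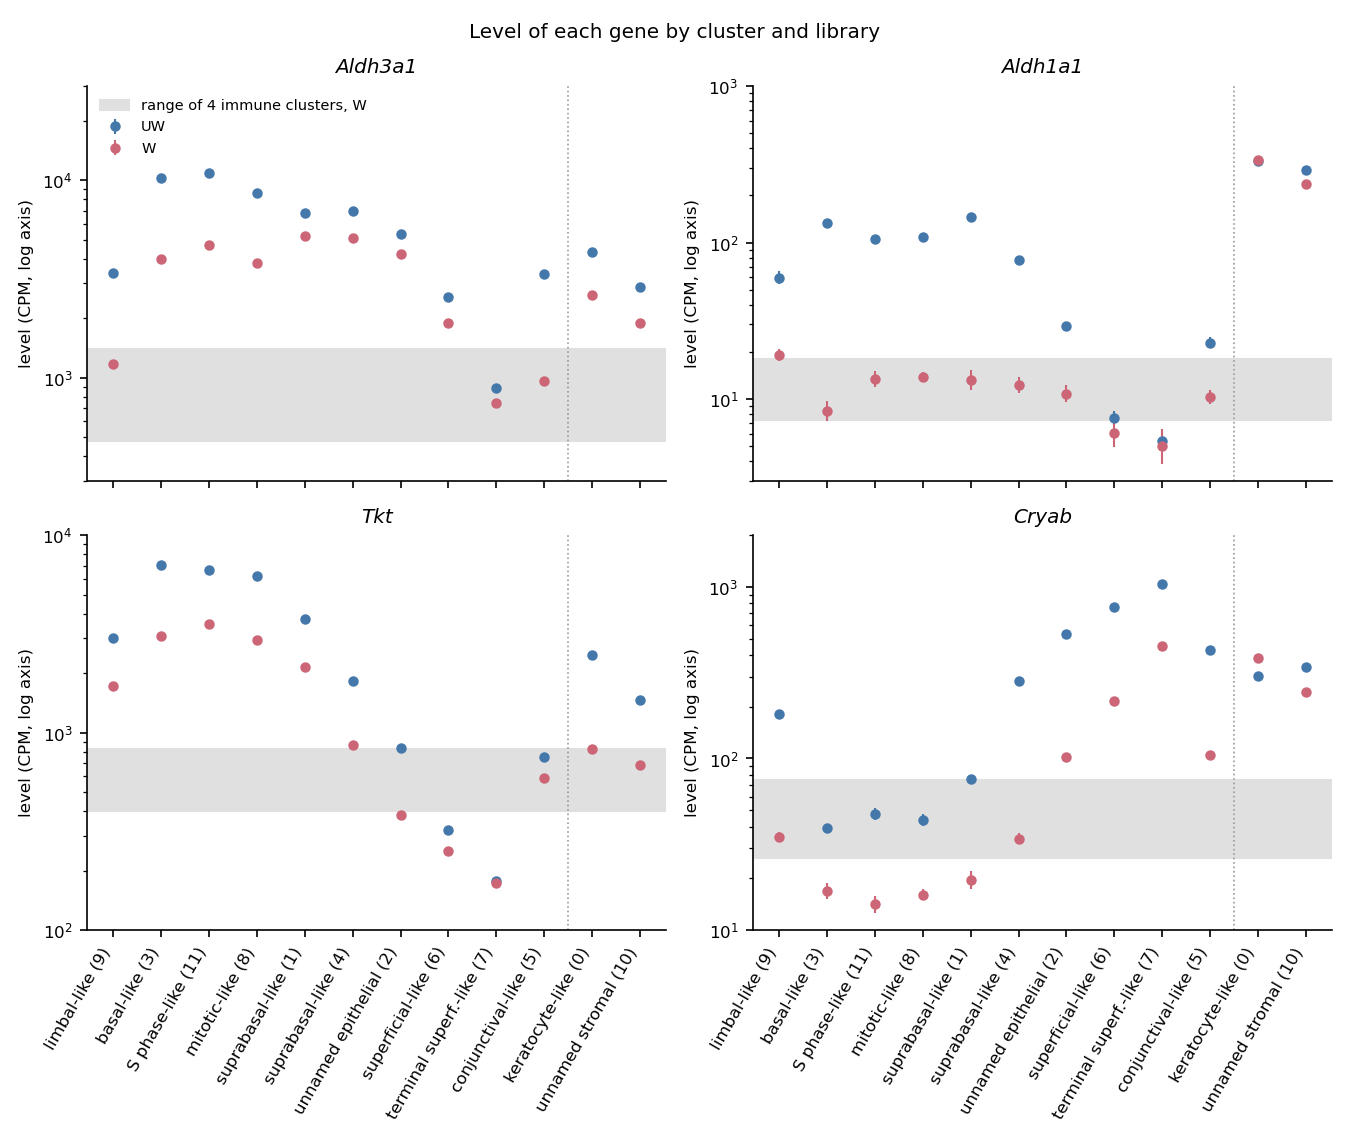
Level of Aldh3a1, Aldh1a1, Tkt and Cryab (CPM, log axis) in 10 epithelial clusters and, right of the dotted line, 2 stromal clusters, with UW in blue, W in red, exact 95% Poisson intervals as bars and the range of the 4 immune clusters of W as a grey band. Aldh3a1 and Tkt were lower in W in each of the 12 clusters, Aldh1a1 lay in or below this band of CPM in the W epithelium, except for cluster 9, but not in the stroma, and Cryab ran the other way, highest in terminal superficial-like cluster 7.

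Aldh3a1 was highest in the proliferating and basal epithelium of UW and was lower in W throughout. Its level in the UW epithelial sum was 5574 CPM (5566 to 5582) and in the W sum 3168 CPM (3161 to 3175), a log2 ratio of -0.82. In UW it was highest in S phase-like cluster 11 at 10857 CPM, basal-like cluster 3 at 10231 CPM and mitotic-like cluster 8 at 8657 CPM. It was lower along the layers, to 6998 and 6812 CPM in suprabasal-like clusters 4 and 1, 2558 CPM in superficial-like cluster 6 and 888 CPM in terminal superficial-like cluster 7. Neighbours in this order were apart by more than counting error, except limbal-like cluster 9 at 3376 CPM and conjunctival-like cluster 5 at 3352 CPM.

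In W this order differed at the top. Suprabasal-like clusters 1 and 4 led with 5202 and 5109 CPM, ahead of cluster 11 at 4721 CPM and basal-like cluster 3 at 3984 CPM. Basal-like cluster 3 stood 11.5-fold above cluster 7 in UW and 5.37-fold above it in W. W was lower in 10 of 10 epithelial clusters, and by at least 1 on the log2 scale in 5 of them: conjunctival-like cluster 5 at -1.80, limbal-like cluster 9 at -1.53, basal-like cluster 3 at -1.36, cluster 11 at -1.20 and cluster 8 at -1.19. The share of all genes lower by at least 1 was 7.47% in cluster 5, 9.76% in cluster 9, 11.1% in cluster 3, 9.33% in cluster 11 and 9.58% in cluster 8. In the epithelial sum 8.77% of 16439 genes were lower by that much and 21.8% were higher, and of the 4 genes Aldh1a1 and Cryab passed that size. TMM scaling, which sets the bulk of genes level, would shift every ratio of the epithelial sum by -0.21 and of cluster 0 by 0.15, and puts Aldh3a1 at -1.02. The W levels of clusters 5, 7 and 9, at 964, 742 and 1168 CPM, lay within the immune range in CPM, but at 29.0, 16.8 and 30.4 UMIs per cell above the immune range per cell. The smallest difference was in cluster 7, where UW and W stood at 888 and 742 CPM. In UMIs per cell 1 of the 5 ratios stayed past 1, that of cluster 5 at -1.50, while clusters 9, 3, 11 and 8 were at -0.70, -0.88, -0.46 and -0.57.

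**Figure D2:**
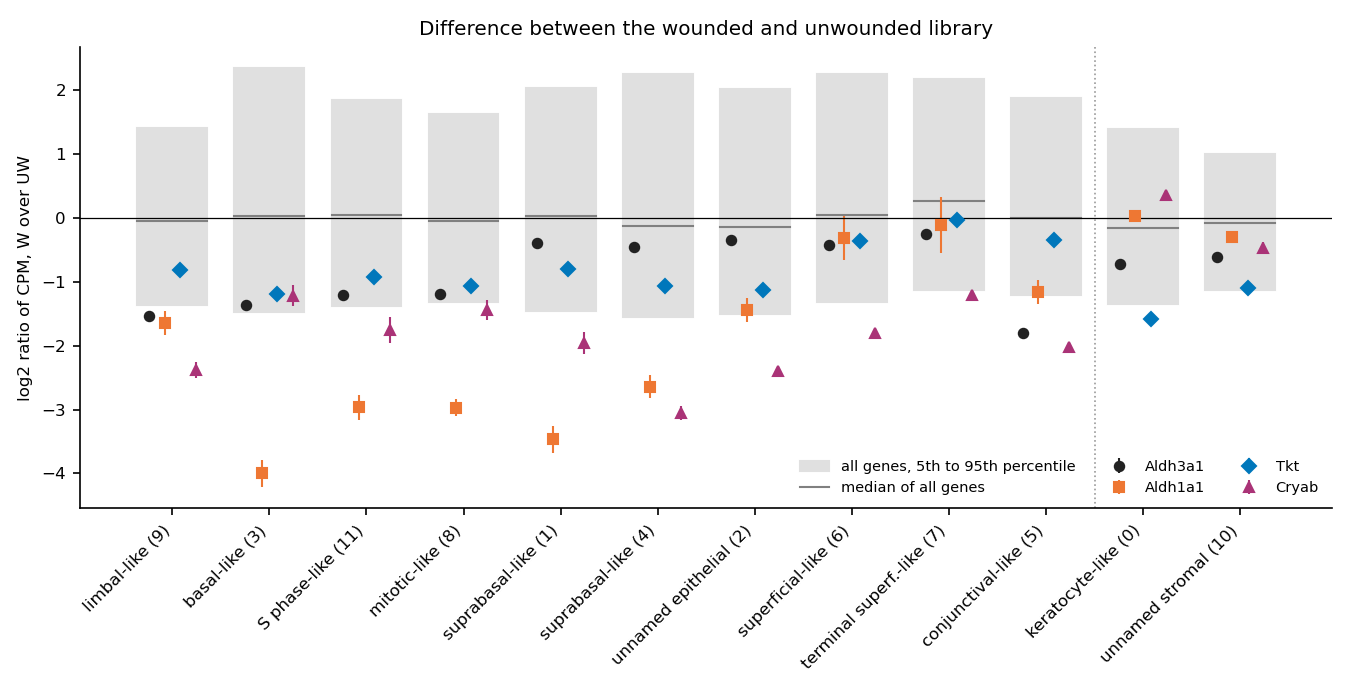
Log2 ratio of CPM, W over UW, of the 4 genes in 12 clusters, with exact 95% counting intervals as bars, over the 5th to 95th percentile (grey) and median (line) of all genes with at least 20 counts. Cryab lay below the grey range in 9 of the 10 epithelial clusters and Aldh1a1 in 6 of them, while Tkt lay below it only in keratocyte-like cluster 0.

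Aldh1a1 was a gene of the stroma and of the lower epithelium in UW, and its epithelial level in W was low, within or near the immune range in CPM. The UW epithelial sum stood at 66.3 CPM (65.4 to 67.2) and the W sum at 11.9 CPM (11.5 to 12.4), a log2 ratio of -2.48 and a 5.56-fold difference. Among epithelial clusters of UW it was highest in suprabasal-like cluster 1 at 146 CPM, then 134 CPM in basal-like cluster 3, with 109 and 105 CPM in clusters 8 and 11, which overlapped in their intervals. Superficial-like cluster 6 and cluster 7, at 7.58 and 5.40 CPM, were at or below the immune range in CPM already in UW. In UMIs per cell cluster 6 of UW stood at 0.215, above the immune range of W, and cluster 7 at 0.130, within it.

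In W the same 10 clusters stood between 5.02 and 19.1 CPM. Limbal-like cluster 9, at 19.1 CPM (17.4 to 20.9), was the only one above the immune range in CPM. In UMIs per cell the 10 clusters held 0.114 to 0.506, and 9 of them were above the immune range. Cluster 7 lay inside it at 0.114, but the upper limit of that range was set by cluster 14, where 1 cell held 10 of 48 UMIs, and without this cell it was 0.108. In the W order each of the 8 neighbouring pairs from cluster 8 down to cluster 7 overlapped in their counting intervals. Whether these low levels are free RNA was not tested. W was lower by at least 1 on the log2 scale in 8 of 10 clusters, with -4.00 in basal-like cluster 3, -3.46 in cluster 1, -2.97 in cluster 8 and -2.96 in cluster 11. In UMIs per cell clusters 5 and 9 were no longer past 1, at -0.86 and -0.81. In cluster 1 the share of all genes lower by that much was 11%. The intervals of clusters 6 and 7 spanned 0.

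Counts of cells gave the same picture at equal depth. After thinning every cell to 5000 UMIs, 42.6% (40.3 to 45) of 1708 UW cells of basal-like cluster 3 held an Aldh1a1 UMI, against 3.47% (2.35 to 4.91) of 865 W cells. Before thinning the shares were 75.2% of 1789 cells and 15.4% of 885 cells. In the immune clusters of W, thinned to 2000 UMIs, the shares were 1.20% to 4.45%, and unthinned they were 4.65% to 8.76%, in shallower cells. Of all Aldh1a1 UMIs in the UW library, 66.6% came from the epithelial sum and 33.4% from the stroma; in the W library the shares were 17.8% and 80.5%.

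Tkt had a steep gradient across the epithelium of UW, with basal cells high and surface cells low. The UW epithelial sum held 2406 CPM (2400 to 2411) and the W sum 1730 CPM (1725 to 1736), a log2 ratio of -0.48. UW basal-like cluster 3 stood at 7045 CPM, followed by 6700 CPM in cluster 11 and 6211 CPM in cluster 8, then 3748 and 1818 CPM in suprabasal-like clusters 1 and 4, 323 CPM in superficial-like cluster 6 and 177 CPM in cluster 7. Basal-like cluster 3 stood 39.8-fold above cluster 7 in UW and 17.9-fold above it in W.

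The W value of Tkt was lower in 10 of 10 epithelial clusters, and in 9 of them the counting interval lay below 0. The direction turned for cluster 9 in UMIs per cell, to 0.02, and for cluster 7 to 0.13 as a mean over cells and 0.18 at 5000 UMIs a cell. It was lower by at least 1 on the log2 scale in 4: basal-like cluster 3 went from 7045 to 3094 CPM (-1.19), cluster 2 from 839 to 384 CPM (-1.13), cluster 4 from 1818 to 869 CPM (-1.07) and cluster 8 from 6211 to 2954 CPM (-1.07). With median-of-ratios scaling clusters 2 and 4 were at -0.99 and -0.94, and in UMIs per cell clusters 3 and 8 were at -0.71 and -0.46. The background shares in clusters 2 and 4 were 13.1% and 13.5%. Terminal superficial-like cluster 7 held 177 and 173 CPM, an interval of the log2 ratio from -0.11 to 0.04. Over the 10 clusters the median log2 ratio of Tkt was -0.87, larger than in the epithelial sum. The 2 libraries held different mixes of clusters: mitotic-like cluster 8, a Tkt-rich cluster, made up 3.25% of UW and 10.7% of W cells. With the W clusters weighted to the UW mix the ratio was -0.97 for Tkt and -0.75 for Aldh3a1.

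Cryab ran against the other 3 genes, low in basal cells and high at the surface, and was lower in W in every epithelial cluster. The UW epithelial sum held 406 CPM (404 to 409) and the W sum 75.8 CPM (74.7 to 76.9), a log2 ratio of -2.42 and a 5.36-fold difference. With the W clusters weighted to the UW mix the ratio was -1.77, and Cryab-rich clusters 6 and 7 made up 9.32% and 9.19% of UW cells but 5.25% and 4.25% of W cells. In UW it was 39.4 CPM in basal-like cluster 3, 76.2 and 283 CPM in suprabasal-like clusters 1 and 4, 535 CPM in cluster 2, 758 CPM in superficial-like cluster 6 and 1045 CPM in terminal superficial-like cluster 7. Cluster 7 stood 26.5-fold above cluster 3 in UW and 26.6-fold above it in W, with the lower end at or below the immune range in CPM in both libraries.

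W was lower by at least 1 on the log2 scale in 10 of 10 epithelial clusters. The largest difference was in suprabasal-like cluster 4, from 283 to 34.1 CPM (-3.06), and the smallest in cluster 7, from 1045 to 450 CPM (-1.21). Superficial-like cluster 6 went from 758 to 218 CPM (-1.80), where 9.58% of genes were lower by at least 1, and in cluster 7 that share was 6.48%. Basal-like cluster 3, clusters 8 and 11 and suprabasal-like cluster 1 stood at 14.1 to 19.6 CPM in W, below the immune range in CPM, and clusters 3, 8 and 11 lay within that range in UW. In UMIs per cell clusters 3, 8 and 11 of UW stood at 0.722, 1.05 and 1.01, above the immune range of W. In UMIs per cell cluster 3 of W lay within the immune range, at 0.432, while without 1 cell of immune cluster 14 that held 19 Cryab UMIs the upper limit was 0.388 and no epithelial cluster of W lay within it. The Cryab ratios of clusters 3 and 8 in UMIs per cell were -0.74 and -0.83. At 5000 UMIs a cell, 65.8% (63.4 to 68.2) of UW cells and 14.1% (11.9 to 16.6) of W cells of cluster 4 held a Cryab UMI, against 92.2% and 46.8% before thinning. The immune share was 6.37% to 13.5% at 2000 UMIs, and 16.8% to 26.3% unthinned.

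The 4 genes together took 0.845% of all UMIs of the UW epithelial sum and 0.499% of the W sum. Their share was largest in UW cluster 11 at 1.77% and UW cluster 3 at 1.74%, and, among epithelial clusters, smallest in cluster 7, at 0.212% in UW and 0.137% in W.

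The spread over single cells was read in a few clusters. In basal-like cluster 3 of UW the 10th percentile, median and 90th percentile of Aldh3a1 were 61.1, 97.8 and 148 UMIs per 10000 UMIs of the cell. In W they were 9.53, 37.6 and 77.5, so that at least 90% of W cells lay below the UW median. For Tkt the same percentiles were 47.1, 69.8 and 97.5 in UW and 6.70, 24.1 and 60.9 in W. In suprabasal-like cluster 4 the median of Cryab was 2.27 UMIs per 10000 in UW and 0 in W, where the 90th percentile was 0.91.

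**Figure D3:**
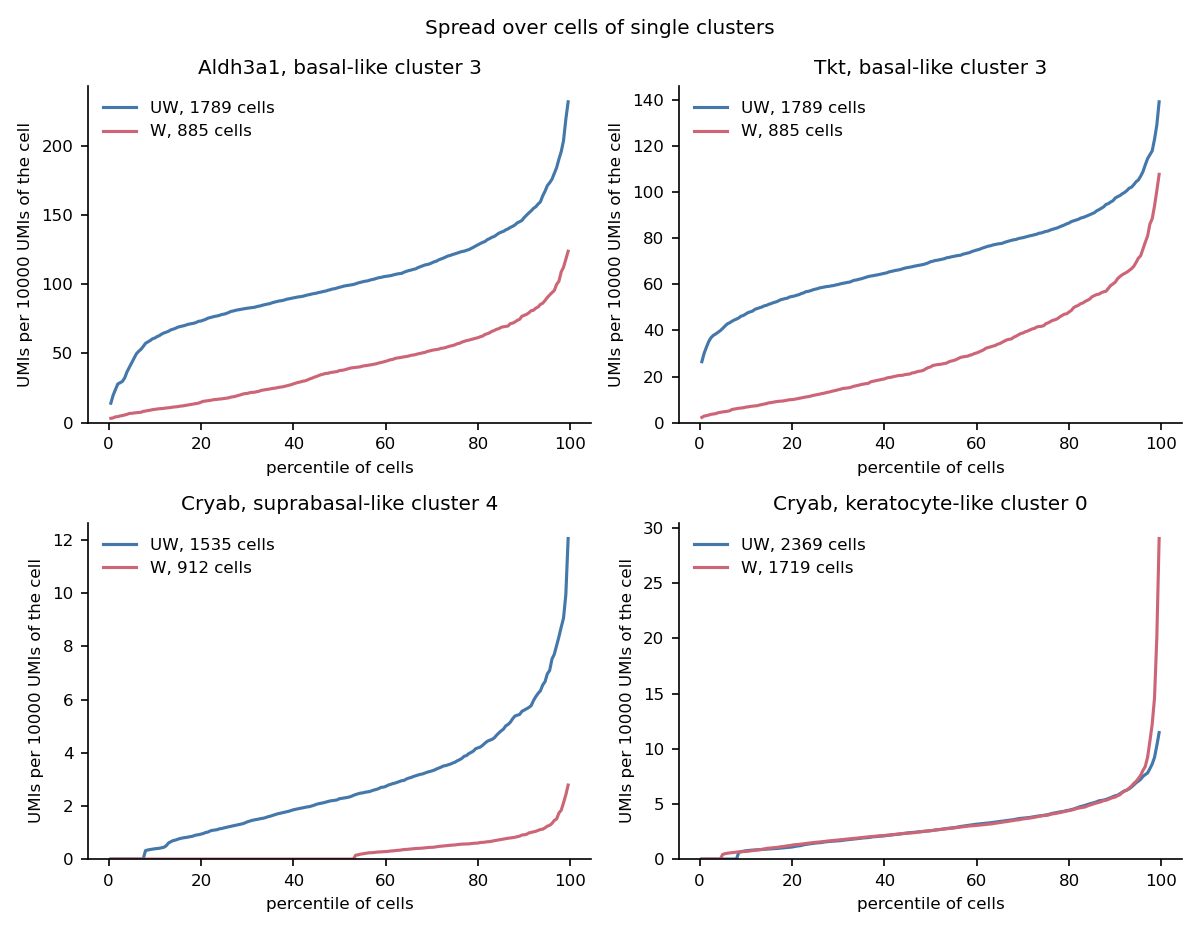
UMIs per 10000 UMIs of the cell (y axis) at each percentile of cells (x axis) for Aldh3a1 and Tkt in basal-like cluster 3 and Cryab in suprabasal-like cluster 4 and keratocyte-like cluster 0, with UW in blue and W in red. The W curves lie below the UW curves in the epithelial panels wherever either is above 0, whereas in cluster 0 the curves coincide up to about the 95th percentile and W is higher above it.

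The low W basal cells differed in more than Aldh3a1. Cells of cluster 3 with at least 5000 UMIs were ranked within each library by Aldh3a1 per 10000 UMIs, and the lowest and highest 25% were summed, 427 cells each in UW and 216 each in W. This ranking fixes the order of Aldh3a1 itself, at 1019 and 7715 CPM in W, and is given as a description. Tkt followed it, with 1063 CPM in the lowest and 5819 CPM in the highest 25% of W, against 5707 and 8541 CPM in UW. Krt12 stood at 6826 and 16805 CPM in those W cells, against 29896 and 28225 CPM in UW. Pax6, a transcription factor of the eye, was lower in the lowest cells of both libraries, at 158 and 281 CPM in W and 246 and 379 CPM in UW.

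Other genes went the opposite way in W. Aldh1a3, another retinaldehyde dehydrogenase that makes retinoic acid, was at 1534 CPM in the lowest and 216 CPM in the highest 25% of W, and at 34.7 and 40.3 CPM in UW. Lamb3, a laminin chain of the basement membrane, was at 392 and 99.6 CPM in W but at 11.8 and 43.0 CPM in UW. Of the 6 basal markers, 5 were higher in the lowest than in the highest cells in W and 0 in UW. Krt19, a keratin of the conjunctiva, was at 207 and 32.6 CPM in W and 6.55 and 7.08 CPM in UW. Of the 4 conjunctival markers, 3 were higher in the lowest cells in each library, with a sum of 799 and 545 CPM in W and 227 and 157 CPM in UW, and of the 4 limbal markers 1 was, with a sum of 2429 and 2358 CPM in W. The part of conjunctival cells in the split was not tested. Aldh1a1 was low at both ends of W, at 5.8 and 13.7 CPM against 135 and 140 CPM in UW, and Cryab was at 16.5 and 17.0 CPM. Median depth was 24031 and 24325 UMIs in these W cells of cluster 3. In the split of cluster 8 of W that follows it was 40008 UMIs in the lowest and 30516 UMIs in the highest 25%. In mitotic-like cluster 8 of W the lowest 25%, 328 cells, held 985 CPM of Aldh3a1, 1436 CPM of Tkt and 1772 CPM of Krt12, with 1937 CPM of Krt17 and 691 CPM of the limbal gene Gpha2. The highest 25% held 7071, 4642 and 13156 CPM of the first 3 and 267 and 114 CPM of the last pair. Of the limbal markers 3 of 4 were higher in the lowest cells of cluster 8 of W, while the most abundant, Ifitm3, was at 2015 and 2183 CPM. Gpha2 and Ifitm3 were not limited to limbal cells, since the stroma of W held more of them. Outside cells with 25 or more Cryab UMIs, Gpha2 stood at 4455 CPM in W cluster 0 and 2635 CPM in W cluster 10. Ifitm3 stood at 5593 and 3001 CPM in those cells. The conjunctival markers were higher in the lowest cells of cluster 8 of W in 4 of 4, with a sum of 2575 and 598 CPM. In UW cluster 8 the same split gave 616 and 128 CPM of Krt17 and 203 and 41.9 CPM of Gpha2. The conjunctival markers of UW cluster 8 were higher in the lowest cells in 4 of 4, with a sum of 804 and 239 CPM. Its limbal markers were so in 4 of 4 as well, with a sum of 439 and 137 CPM. Aldh1a3 and Lamb3 were closer together in cluster 8 of W, at 218 and 178 CPM and at 57.3 and 63.5 CPM. Of the 6 basal markers 0 were higher in the lowest cells of cluster 8 of W, where they summed to 1005 and 2289 CPM, unlike in cluster 3.

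**Figure D4:**
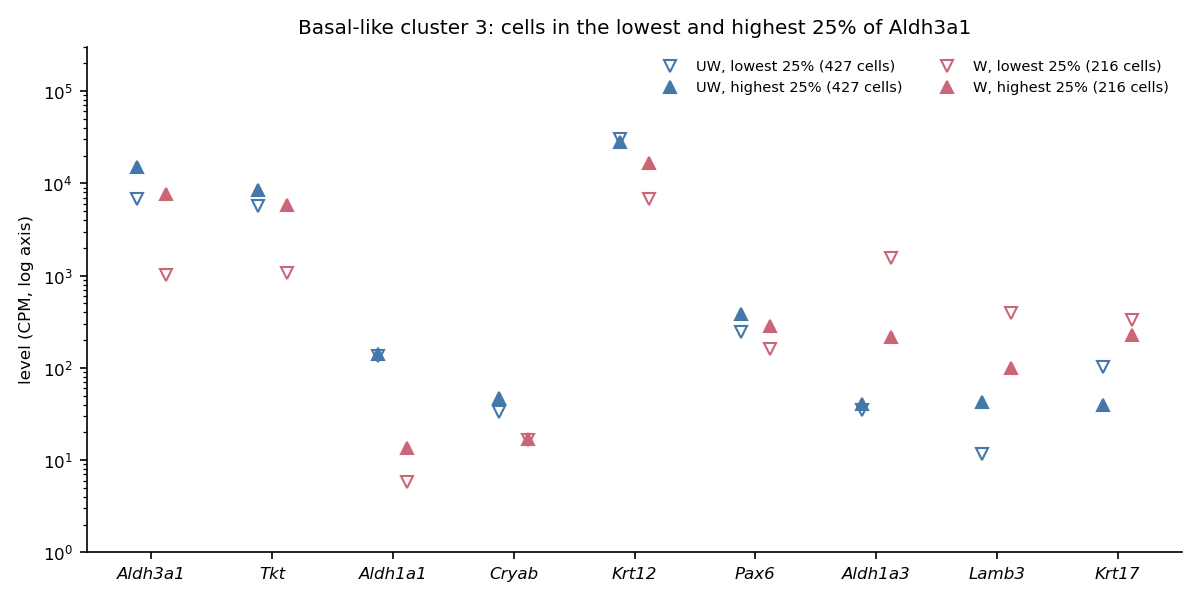
Level (CPM, log axis) of 9 genes in cells of basal-like cluster 3 that were in the lowest (open, pointing down) or highest (filled, pointing up) 25% by Aldh3a1, with UW in blue (427 cells each) and W in red (216 cells each). Tkt and Krt12 were low in the lowest W cells, Aldh1a3 and Lamb3 were high there, and Aldh1a1 and Cryab were low at both ends of W. Heights are not compared between genes.

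The stroma held all 4 genes, with log2 ratios of its sum at -0.72 for Aldh3a1, -0.04 for Aldh1a1, -1.54 for Tkt and 0.21 for Cryab, and its difference from the epithelium was not tested. In keratocyte-like cluster 0, Aldh3a1 stood at 4321 CPM in UW and 2622 CPM in W (-0.72), and in cluster 10 at 2878 and 1890 CPM (-0.61). Epithelial RNA was measured there through Krt12, at 1554 and 736 CPM in cluster 0 of UW and W. Aldh3a1 was 13.4-fold above the level these Krt12 UMIs would carry at the epithelial ratio in UW and 13.9-fold above it in W. Tkt in cluster 0 had 2483 CPM in UW and 828 CPM in W, the lowest ratio of this gene at -1.59, and 1466 and 682 CPM in cluster 10 (-1.10). The shares of genes lower by at least 1 were 9.67% in cluster 0 and 6.63% in cluster 10. Both W values of Tkt lay within the range of the immune clusters in CPM, and above it in UMIs per cell, at 15.6 and 8.98 against 2.14 to 6.43. In UMIs per cell the ratios of Tkt were -0.93 and -0.72, and those of Aldh3a1 were -0.07 and -0.23.

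Aldh1a1 differed little in CPM in the stroma, and cluster 0 had its highest level in both libraries. Cluster 0 held 331 CPM in UW (324 to 338) and 337 CPM in W (330 to 343), and the interval of the log2 ratio ran from -0.02 to 0.06. It was 0.17 with TMM scaling and 0.68 in UMIs per cell, at 3.98 and 6.35 UMIs. Cluster 10 held 290 and 235 CPM (-0.30). At 5000 UMIs a cell, 69.1% of UW and 67.9% of W cells of cluster 0 held an Aldh1a1 UMI, and 86% and 90% did before thinning.

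Cryab in cluster 0 was higher in W, at 387 CPM against 302 CPM in UW (0.36, interval 0.32 to 0.40). In that cluster 7.34% of genes were higher by at least 1, a size Cryab did not reach in CPM. Its ratio was 0.51 with TMM scaling and 1.01 in UMIs per cell, at 3.63 and 7.30 UMIs. No UW cell of cluster 0 held more than 24 Cryab UMIs, whereas 55 of 1719 W cells held 25 or more, up to 479, and carried 30.7% of the Cryab UMIs of the cluster. Cells of the cluster held a median of 11853 UMIs in UW and 17588 in W, and per 10000 UMIs of the cell 16 W cells lay above the highest UW cell, which held 21.3. The limit of 25 UMIs lies just above the highest UW cell, so leaving such cells out took cells from W alone and could only lower W. Without those 55 cells W stood at 286 CPM and the log2 ratio was -0.08, or 0.07 with TMM scaling. The median cell held 2.58 UMIs per 10000 in UW and 2.57 in W. The 55 cells had a median of 35000 UMIs against 17360 in the other W cells of the cluster, and 8 of them had been called doublets in the authors' first doublet run, against 6 of the other W cells of the cluster.

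The other members were lower in these 55 cells than in the rest of W cluster 0: Aldh3a1 at 1111 against 2723 CPM, Tkt at 388 against 857 CPM and Aldh1a1 at 145 against 349 CPM. Kera, at 837 against 2651 CPM, Col1a1, at 1409 against 4932 CPM, and Gpha2, at 480 against 4455 CPM, were lower as well. Krt12 was at 426 against 756 CPM. The genes with the largest fold beside Cryab were Il1rl1, the receptor of interleukin 33, at 157 against 11 CPM, Asns, asparagine synthetase, at 132 against 28.5 CPM, and Steap1 at 81.2 against 18.9 CPM. In cluster 10, where Cryab went from 340 to 244 CPM (-0.48), 7 UW cells with 25 or more UMIs carried 19.5% of the Cryab UMIs. Those 7 held 1176 CPM of Slc4a11, a transporter of the corneal endothelium, against 10.7 CPM in the rest. They held 9.44 CPM of Kera and 94.4 CPM of Col1a1, against 2853 and 10290 CPM, and so were endothelial-like rather than stromal. Without all cells of cluster 10 with 25 or more Cryab UMIs the levels were 284 and 220 CPM (-0.37).

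Gene families of the 4 members were read in the epithelial sum, where the median log2 ratio of all genes was 0.22 and 8.77% of genes were lower and 21.8% higher by at least 1. Of 20 aldehyde dehydrogenases, 19 had at least 20 counts: 3 were lower (8.77% of all genes) and 5 higher by at least 1 (21.8% of all genes), with a median of 0.19. Aldh1a3 went from 59.5 to 331 CPM (2.47) and was higher by at least 1 in 10 of 10 epithelial clusters, from 1.55 in conjunctival-like cluster 5 to 4.12 in basal-like cluster 3, the cluster in which Aldh1a1 had its lowest ratio. Over these clusters the 75th percentile of the ratios of all genes ran from 0.44 in cluster 9 to 0.93 in cluster 7. Aldh2, the mitochondrial acetaldehyde enzyme, stood at 50.5 and 52.0 CPM (0.04, a sign that TMM scaling turns), and Aldh3b2 at 156 and 122 CPM (-0.35), although it was higher in W in 8 of 10 epithelial clusters. Aldh6a1 and Aldh1a7 were the other members lower by at least 1, at 14.7 and 4.90 CPM and at 2.75 and 0.98 CPM. Aldh7a1, Aldh16a1, Aldh18a1 and Aldh1b1 were the other members higher by at least 1, all below 16 CPM, with ratios of 1.28, 1.17, 1.58 and 2.11.

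The pentose phosphate pathway did not move as 1 group. None of its 8 genes with enough counts was past 1 in the epithelial sum, with a median of -0.19. G6pdx, which commits glucose to the pathway, went from 59.3 to 34.5 CPM (-0.78), and Taldo1, the partner of transketolase, from 686 to 531 CPM (-0.37), with W lower in 5 and higher in 5 epithelial clusters. Pgd, the other step that yields NADPH, went from 69.1 to 97.5 CPM (0.50) and Pgls from 154 to 190 CPM (0.30). Rpia went from 51.5 to 38.6 CPM (-0.41). In cluster 0, where 9.67% of all genes were lower and 7.34% higher by at least 1, Tkt was the only one of the 8 past 1. None of the other 7 was lower by 1, with Taldo1 at 206 and 268 CPM (0.38).

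Among 6 small heat shock proteins counted, Cryab, Hspb1 and Cryaa were lower and Hspb8 higher by at least 1 in the epithelial sum, beside 8.77% of all genes lower and 21.8% higher. Hspb1 went from 3633 to 1664 CPM (-1.13) and was lower in 10 of 10 epithelial clusters, from -1.85 in superficial-like cluster 6 to -0.48 in basal-like cluster 3. Hspb2, the head-to-head neighbour of Cryab, stood at 1.04 and 1.20 CPM (0.20, a sign that median-of-ratios scaling turns). Lens crystallins proper were low. Cryaa was at 0.40 and 0.13 CPM, and of 14 beta and gamma crystallins 7 were in the table and 5 had enough counts, with 2, Cryba4 and Crybb1, higher and 0 lower by at least 1. Crybb1 was at 0.015 and 0.19 CPM. Cryba4 had the highest W level of these, at 1.39 CPM in UW and 21.5 CPM in W (3.95), beside 19.6 CPM in the immune cells of W.

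Proteins used as crystallins in the lens or cornea of other animals included 4 higher and 0 lower by at least 1 in W, of 10 with enough counts, beside 21.8% and 8.77% of all genes. Their median was 0.65, and 2, Gsn and Cryl1, were below 0. The glycolytic enzymes Gapdh, Pgk1 and Ldha went from 417 to 1221 CPM (1.55), from 73.1 to 210 CPM (1.52) and from 198 to 545 CPM (1.46). Cryz, a quinone reductase, was also higher by at least 1, at 1.65 and 3.89 CPM (1.23), and Eno1 went from 89.4 to 131 CPM (0.55). Gsn, which severs actin and is a corneal crystallin of fish, went from 748 to 510 CPM (-0.55), and Ppia from 1873 to 2398 CPM (0.36).

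Genes that handle retinoids before and after Aldh1a1 went in both directions. Of 14 with enough counts, 2 were lower and 5 higher by at least 1, beside 8.77% and 21.8% of all genes, with a median of 0.50. The higher ones were all below 19 CPM: Crabp2, a carrier of retinoic acid (3.45), Stra6 (3.03), Crabp1 (2.35), Rarb (2.25) and Dhrs9, which had 0 counts in UW. Cyp26b1, which breaks down retinoic acid, was lower, at 30.0 and 14.1 CPM (-1.08). Adh1, an alcohol dehydrogenase that can oxidise retinol, went from 467 to 169 CPM (-1.46) and Adh7 from 597 to 631 CPM (0.08, a sign that TMM scaling turns), with W lower in 6 of 10 epithelial clusters and by at least 1 in 4. Rarg, a retinoic acid receptor, went from 128 to 86.6 CPM (-0.56). In cluster 0, of 12 with enough counts, Crabp2 was lower by at least 1, at 156 and 20.8 CPM (-2.90), beside 9.67% of all genes. There 4 were higher, beside 7.34% of all genes: Stra6 (3.13), Rarb (1.85), Adh7 (1.45) and Cyp26b1 (1.20).

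**Figure D5:**
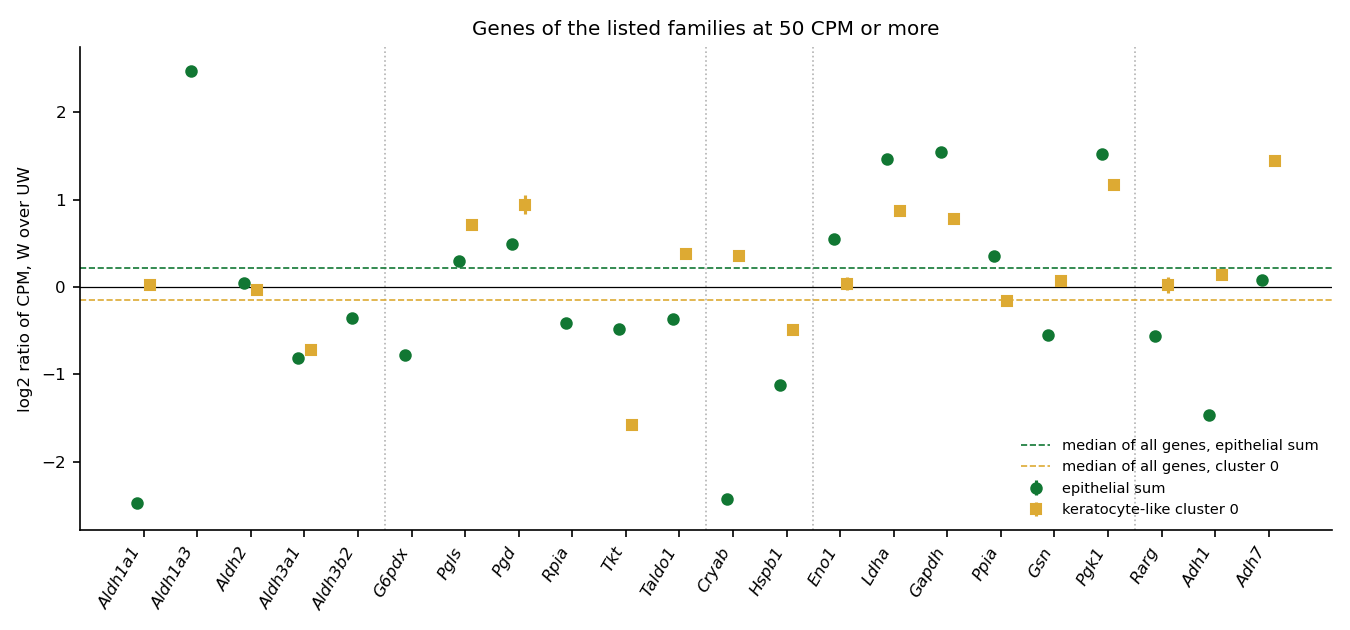
Log2 ratio of CPM, W over UW, with exact 95% counting intervals, for the listed genes at 50 CPM or more in the epithelial sum of a library (green circles), and in keratocyte-like cluster 0 where they reached that level there (yellow squares), with dashed lines at the median of all genes and dotted lines between families. Aldh1a1 and Aldh1a3 stood at opposite ends in the epithelium, at -2.48 and 2.47, and Tkt was the lowest gene of its pathway in cluster 0, at -1.59.

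Across the 10 epithelial clusters of UW, Pearson's r of log2(CPM + 1) was 0.96 between Aldh1a1 and Tkt, 0.90 between Aldh3a1 and Aldh1a1 and 0.89 between Aldh3a1 and Tkt. Cryab gave -0.97 with Tkt, -0.91 with Aldh1a1 and -0.84 with Aldh3a1. In W the r was 0.70 between Aldh1a1 and Tkt, 0.38 between Aldh3a1 and Aldh1a1 and 0.57 between Aldh3a1 and Tkt. Cryab there gave -0.98 with Tkt, -0.74 with Aldh1a1 and -0.71 with Aldh3a1. These values describe 10 points that share a library, its depth and its free RNA.

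Over 28 groups of at least 50 cells, made of clusters in each library, the genes most alike were found among 6118 by the same r. Homer2 (0.94), Rasgrf1 (0.93), Trpm3 (0.93), Gyg (0.89) and Mgarp (0.89) were most like Aldh3a1. Dbp (0.94), Acadsb (0.93), Ctsf (0.92), Cry2 (0.92) and Ttc28 (0.91) were most like Aldh1a1, and Dbp and Cry2 are genes of the circadian clock. Ube2q2 (0.94), Lancl1 (0.94), Prdx6 (0.94), Isoc1 (0.93) and Srsf1 (0.93) were most like Tkt, and Map1lc3a (0.91), Ypel3 (0.89), Epb41 (0.88), Abhd17b (0.87) and Reep3 (0.86) were most like Cryab. Pax6 stood at 259 and 232 CPM and Klf4, another transcription factor of the corneal epithelium, at 914 and 1030 CPM in the UW and W epithelial sums.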

How the data were processed

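Corneas of UW and W mice were dissociated and 1 droplet library was made per condition with a 3′ kit, version 2 in the paper and version 3 in the labels. The authors aligned reads with Cell Ranger 3.1.0 to the mm10 reference named in the paper (the submitters' processing notes list another mouse build), and deposited whole-number counts of UMIs per cell and gene with cluster numbers. Their stated limits were 500 to 8000 detected genes per cell, a mitochondrial share of up to 10%, and detection of a gene in 5 or more cells. Doublets were stated to be removed with DoubletFinder. Cells called doublets in its first run still numbered 305 in UW and 164 in W. In the files, cells had 501 to 7570 genes and up to 9.99% mitochondrial UMIs.

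The members and the gene lists were chosen with earlier results of these data known. Raw counts were summed per deposited cluster and library and divided by the total UMIs (CPM). Ratios are W over UW in groups of at least 50 cells per library; across all genes, those with at least 20 counts over both libraries were compared, and a size of 1 on the log2 scale was taken as large. No p-value was computed, since each condition had 1 library. Zero counts entered all-gene ratios as 3 counts. Clusters were named from marker genes, and the unnamed clusters carried raised markers of more than 1 cell type. Cluster 2 had 4 of 5 suprabasal and 4 of 5 superficial markers. Cluster 10 had 5 of 5 keratocyte and 2 of 3 corneal endothelial markers, and cluster 17 had 5 of 5 keratocyte and 2 of 4 neutrophil markers. Named from the lists were genes at 50 CPM or more in a summed library, with others given where a count of 5 or fewer needed their names, and the 5 genes most alike each member. One listed gene is not reported here and stayed out of its list's counts. The Cryab-rich stromal cells and the ranking of basal cells by Aldh3a1 were chosen after the values were seen.

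Thinning drew 5000 UMIs per cell (2000 in immune cells) and left out shallower cells: 367 of 13501 UW and 176 of 8507 W epithelial cells, 69 and 23 stromal cells and 194 W immune cells. Intervals were exact at 95%. Alternatives were other scalings (TMM in edgeR 4.0.16, median of ratios in DESeq2 1.42.0), stricter cells, other averages and the UW mix of clusters. The ratio and its interval were tested on simulated counts. Python 3.11.15, scipy 1.17.1 and R 4.3.3 were used. Promoters were matched by symbol in a RefSeq table, which gave 2 of the 4 genes.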

Additional observations from a re-analysis of the deposited data

Results flagged for a closer look

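Cryab was lower in W in the epithelium and higher in keratocyte-like cluster 0. Its log2 ratio was -2.42 in the epithelial sum and 0.36 in cluster 0, under the same contrast. The difference between the epithelium and the stroma was not tested, since each condition had 1 library. The value in cluster 0 was -0.08 without the 55 W cells that held 25 or more Cryab UMIs, 0.25 without cells of the first doublet run, 0.15 as a mean over cells, 0.17 at 5000 UMIs a cell, 0.51 with TMM or median-of-ratios scaling and 1.01 in UMIs per cell. Leaving out the 55 cells took cells from W alone. Per 10000 UMIs of the cell, 16 W cells lay above the highest UW cell.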

How the results depend on the processing

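All 4 genes stayed lower in W in the epithelial sum under all 10 alternatives. With the main values at -0.82 for Aldh3a1, -2.48 for Aldh1a1, -0.48 for Tkt and -2.42 for Cryab, the values in that order were -1.02, -2.68, -0.68 and -2.63 with TMM scaling; -1.03, -2.69, -0.69 and -2.63 with median-of-ratios scaling; -0.93, -2.59, -0.59 and -2.54 without the 50 most abundant and the mitochondrial genes; -0.85, -2.55, -0.82 and -2.24 as a mean over cells; -0.86, -2.70, -0.81 and -2.26 at 5000 UMIs a cell; and -0.75, -2.78, -0.97 and -1.77 at the UW mix of clusters. Stricter limits on cells (1000 detected genes, a 5% mitochondrial share) gave -0.79 for Aldh3a1 and -0.43 for Tkt, and leaving out doublets of the first run gave -0.80 for Aldh3a1. Among alternatives chosen after seeing the data, unscaled UMIs per cell gave -0.63, -2.29, -0.29 and -2.23, and leaving out clusters 5 and 9 gave -0.58, -2.65, -0.37 and -2.44. Beyond what the alternatives' own construction shows, the cause of these moves was not tested.

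In single clusters, 29 of 48 ratios were past 1 in size, all of them lower in W. Over these clusters 6.48% to 13.5% of all genes were lower by at least 1. Between 26 and 29 of the 29 ratios stayed past 1 under the other settings that covered every cluster, and 17 with UMIs per cell. Signs turned for Tkt in cluster 7 (to 0.13 as a mean over cells and 0.18 at 5000 UMIs), Aldh1a1 in cluster 7 (to 0.21 as a mean over cells), and with UMIs per cell for Tkt in cluster 9 (to 0.02) and Aldh1a1 in cluster 10 (to 0.08). The share of genes higher by 1 in the epithelial sum was 11.2% among genes at 50 CPM or more, against 21.8%. No paired analysis was possible because each condition had 1 library. Free RNA limits the reading of Aldh1a1 and basal Cryab in W, whose place against the immune cells differed between CPM and UMIs per cell.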

Other observations

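Cluster 17 held 29 W cells and no UW cell, was led by Cxcl9, Gm5483 and Acod1 and stayed unnamed. It held Kera at 2598 CPM, near the 2537 CPM of W cluster 0, and S100a8, a neutrophil marker, at 1578 CPM. Cluster 17 stood at 280 CPM (236 to 328) of Aldh1a1, 2630 CPM of Aldh3a1, 916 CPM of Tkt and 199 CPM of Cryab. W cluster 0 held 337 CPM of Aldh1a1 and 2622 CPM of Aldh3a1. The 15 immune cells of UW held 1488 CPM (1114 to 1946) of Aldh3a1 and 786 CPM (522 to 1136) of Tkt.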
